A study of Homo sapiens with 18 samples.

Results

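The genes described here are the activators and inhibitors of hepatocyte growth factor (HGF) and the receptors and adaptors of MET signalling, 10 of the 19901 genes in the count table. They were chosen by name, as the receptors MET and MST1R, the ligands HGF and MST1, the proteases HGFAC and ST14, the inhibitors SPINT1 and SPINT2, and the adaptors GAB1 and CBL. All 10 were present in the table. mRNA was sequenced from 3 established cell lines of head and neck squamous cell carcinoma (HNSCC): Detroit 562, from a metastasis of a pharyngeal tumour, FaDu, from a primary tumour of the hypopharynx, and SCC-9, from a primary tumour of the tongue. Each line gave 3 control libraries, from cells left untreated, and 3 HGF libraries, from cells given HGF at 50 ng/mL, 18 libraries in all. The sample records and the paper give 16 h of treatment, which is used here, and the series record gives 48 h. Detroit 562 and FaDu shared a medium, MEM-α, whereas DMEM F12 supplemented with hydrocortisone was used for SCC-9, so line and medium cannot be told apart where SCC-9 is compared with the others. All cells were taken off the plate with trypsin before RNA was isolated. Each line comes from a single tumour, and the paper's methods state that the experiment was repeated, without tying the repeats to libraries. The labels number the replicates only, so p-values measure the spread between these libraries, whatever its source.

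HGF is secreted as an inactive single chain, mostly by fibroblasts and other stromal cells, and has to be cleaved by serine proteases at the cell surface or in the serum before it can activate its receptor, the tyrosine kinase MET. The proteases are held in check by Kunitz-type inhibitors in the membrane, so a tumour cell can set how much active ligand it meets. Active MET recruits the docking protein GAB1, which passes the signal on, and the ubiquitin ligase CBL, which marks the receptor for internalization and degradation. MST1R (RON) and its ligand MST1 (macrophage-stimulating protein) form a sister system with the same layout.

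Promoter sequences are shown for the 3 members that were higher in untreated Detroit 562 than in both other lines and that have an entry among the RefSeq promoters of GRCh38.p14, namely MET, MST1R and SPINT1. An entry was found for 6 of the 10 members, and the other entries were MST1, HGF and HGFAC. Each window runs 5′ to 3′ on the strand of the gene, 300 bases in all. It spans 250 bases before to 50 bases after the start annotated for that entry, which can differ from the gene start in the count table. The whole MET window lies upstream of the gene start at 116672390 in that table. Capitals mark matches, on either strand, to 4 motifs: the GC box GGGCGG, the ETS core CCGGAA, the AP-1 site TGANTCA and the E-box CACGTG.
MET promoter, chr7:116671946-116672245, plus strand: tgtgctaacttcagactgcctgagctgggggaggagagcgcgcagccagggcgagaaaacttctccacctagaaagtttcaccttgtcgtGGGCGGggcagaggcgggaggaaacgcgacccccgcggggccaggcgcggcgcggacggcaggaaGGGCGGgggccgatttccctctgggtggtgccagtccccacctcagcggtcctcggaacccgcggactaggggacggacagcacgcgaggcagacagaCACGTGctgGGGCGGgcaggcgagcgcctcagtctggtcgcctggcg
MST1R promoter, chr3:49903824-49904123, minus strand: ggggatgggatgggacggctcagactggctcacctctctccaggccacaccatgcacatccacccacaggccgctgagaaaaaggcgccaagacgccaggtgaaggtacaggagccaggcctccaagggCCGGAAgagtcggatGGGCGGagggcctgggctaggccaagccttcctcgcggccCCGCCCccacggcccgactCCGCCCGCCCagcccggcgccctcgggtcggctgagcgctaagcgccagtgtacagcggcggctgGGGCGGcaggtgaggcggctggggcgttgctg
SPINT1 promoter, chr15:40843798-40844097, plus strand: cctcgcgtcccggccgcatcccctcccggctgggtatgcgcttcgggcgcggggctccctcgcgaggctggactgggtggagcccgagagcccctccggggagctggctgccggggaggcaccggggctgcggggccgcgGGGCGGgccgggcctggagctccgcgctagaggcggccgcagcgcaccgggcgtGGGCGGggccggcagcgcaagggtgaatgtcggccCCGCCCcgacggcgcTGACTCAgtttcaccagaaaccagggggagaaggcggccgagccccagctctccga
The GC box was matched 3 times in the MET window, 5 times in the MST1R window, where a pair of matches overlap, and 3 times in the SPINT1 window. Of all 35116 RefSeq windows of this length, 44.95% held a GC box. The MET window also held 1 E-box, which 7.26% of all windows held, the MST1R window 1 ETS core, which 17.2% held, and the SPINT1 window 1 AP-1 site, which 7.71% held. The share of G and C was 69.3% in the MET window, 71.3% in that of MST1R and 77.7% in that of SPINT1, against a median of 58.7% over all windows. SPINT1 has a second annotated start further downstream, whose window held none of the 4 motifs. Among the entries not shown, the MST1 window held 2 GC boxes and 1 ETS core, and those of HGF and HGFAC none of the 4 motifs. A match is a run of letters and was not tested for binding.

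The libraries held 35304770 to 44003970 counts (median 40138919). Of all genes, 15475 had enough reads to be tested, among them 8 of the 10 members. HGF and HGFAC did not pass the filter. All 10 genes of a list of squamous epithelial markers were detected in each line, and in Detroit 562 9 of the 10 had at least 100 counts in every library. Of 5 leukocyte markers, 3 (Detroit 562) or 2 (FaDu, SCC-9) had at most 3 counts in every library, PTPRC among them in each line. CD68 was the exception, with 829 to 1842 counts in Detroit 562, 707 to 1486 in FaDu and 2170 to 2441 in SCC-9. Gene coordinates below are those of the count table, on GRCh38.

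The first question was how the lines differ before HGF is added. A gene was called where the adjusted p of edgeR's quasi-likelihood test was below 0.1 and the log2 fold change at least 0.4 in size. Between untreated Detroit 562 and untreated FaDu 5 of the 8 members tested were called, where 61% of all genes tested were called. Between untreated Detroit 562 and untreated SCC-9 it was 7 of 8, where 65.4% of all genes were, and between untreated FaDu and untreated SCC-9 4 of 8, where 64.2% were. Most genes differed between these lines, so the counts of members called are not a result about the members. These 3 comparisons share their control libraries. The second question was what HGF does to the machinery of its own pathway. With HGF 1 of 8 members was called in Detroit 562, where 17.9% of all genes tested were called, none of 8 in FaDu, where 0.0258% were, and none of 8 in SCC-9, where 0% were. At an unadjusted p below 0.05 there were 2 members in FaDu, where 8.06% of all genes were, and 0 in SCC-9, where 4.14% were. DESeq2 called 0 members in both, and 0.426% and 0.123% of all genes. The members had a median log2 fold change of -0.14 (Detroit 562), -0.065 (FaDu) and -0.012 (SCC-9), against -0.0056, -0.0039 and 0.0013 over all genes tested.

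**Figure D1:**
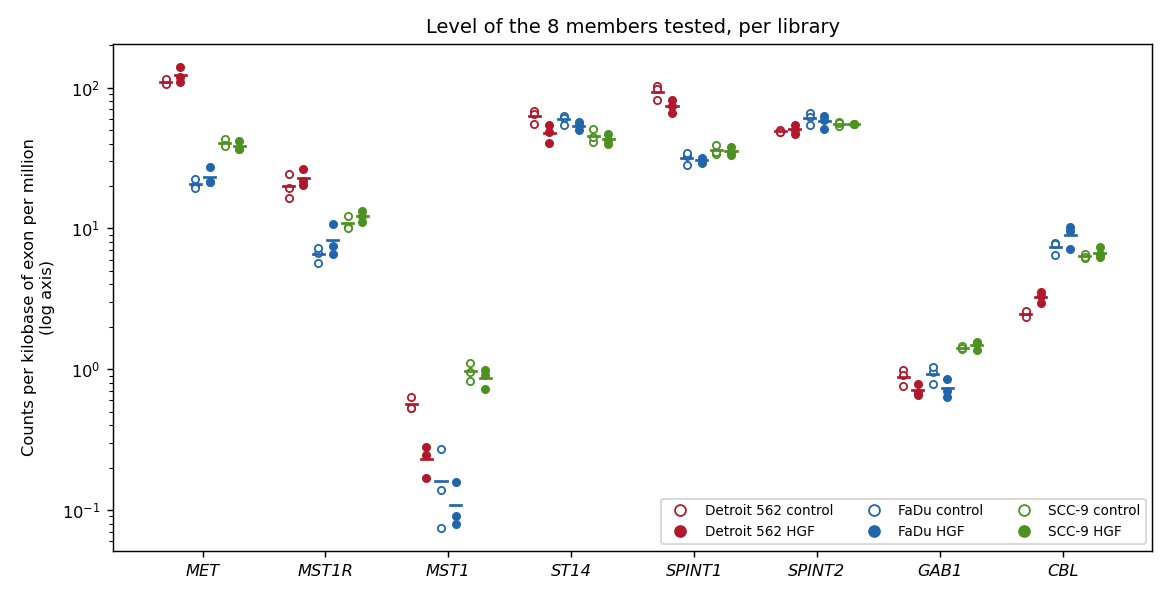
Level of the 8 members tested in every library, as CPM per kilobase of exon on a log axis. Open circles are control and filled circles HGF libraries, and bars are the means of 3. MET and SPINT1 stand highest in Detroit 562, CBL lowest there, SPINT2 lies within 47.0 to 65.9 in all 18 libraries, and MST1 and GAB1 are the lowest of the genes shown.

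Levels of different genes are compared as counts scaled to library size (CPM) and divided by the kilobases of merged exons, called level per kilobase here. The authors counted reads over whole genes, introns included, so the scale is approximate. In untreated Detroit 562 the level per kilobase was highest for MET at 109.8 ± 5.22 (SD, n = 3), followed by SPINT1 at 93.6 ± 10.7 and ST14 at 63.0 ± 6.87. In untreated FaDu the order was different, with SPINT2 at 60.6 ± 6.04 and ST14 at 59.3 ± 4.44, whose libraries overlapped, above SPINT1 at 31.7 ± 3.38 and MET at 20.5 ± 1.59. In untreated SCC-9 SPINT2 led at 55.5 ± 1.79, above ST14 at 45.4 ± 4.64 and MET at 40.0 ± 2.45, and the libraries of ST14 and MET overlapped. On this scale the receptor stood above all other members in Detroit 562, while SPINT2 stood above it in FaDu and SCC-9. The order of genes depends on the length used, as SPINT2 has 5085 bases of merged exons and a main transcript of 1688 bases. For MET these are 7224 and 6822 bases. With the shorter length SPINT2 would stand higher, so the first place of MET in Detroit 562 is not settled. At the low end, GAB1 was at 0.882 ± 0.116 in untreated Detroit 562, 0.923 ± 0.129 in FaDu and 1.42 ± 0.0310 in SCC-9.

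MET (ENSG00000105976.14, chr7:116672390-116798386, plus strand) encodes the receptor of HGF. Without HGF its TMM-normalized counts, which are counts scaled for library size and composition, were 30966, 30755 and 33468 for Detroit 562, 5779, 5557 and 6443 for FaDu and 12376, 11268 and 11060.2 for SCC-9. No library of a line overlapped those of another. In bulk samples fewer cells that express a gene and less RNA per cell cannot be told apart. The level in Detroit 562 was 5.35 times that in FaDu (log2 fold change 2.42, SE 0.109, edgeR adjusted p = 5.57e-12) and 2.74 times that in SCC-9 (1.46, SE 0.106, adjusted p = 1.64e-09). FaDu lay below SCC-9 (log2 fold change -0.96, SE 0.105, adjusted p = 2.86e-07). With HGF Detroit 562 had 31421, 34103 and 40379, FaDu 6138, 6211 and 7865 and SCC-9 12032, 10493 and 10522, each overlapping its controls. The log2 fold change with HGF was 0.15 in Detroit 562 (95% interval -0.065 to 0.37), 0.19 in FaDu (-0.035 to 0.41) and -0.071 in SCC-9 (-0.29 to 0.15), and none passed the test. The replicate numbers were taken to pair control and HGF libraries, which the labels do not state. In an edgeR model with these pairs as a block MET reached an adjusted p of 0.0273 (Detroit 562) and 0.0384 (FaDu). Its fold changes stayed below the limit of 0.4.

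MST1R (ENSG00000164078.12, chr3:49887002-49903873, minus strand) encodes RON, the receptor of macrophage-stimulating protein and closest relative of MET. Untreated Detroit 562 had normalized counts of 3476, 4047 and 5098, FaDu 1186, 1415 and 1524 and SCC-9 2152, 2576 and 2106. The order of the lines was the same as for MET, again without overlap. Detroit 562 was higher than FaDu by a log2 of 1.61 (SE 0.176, adjusted p = 3.18e-07) and higher than SCC-9 by 0.88 (SE 0.172, adjusted p = 0.00018), and FaDu was lower than SCC-9 (-0.73, SE 0.173, adjusted p = 0.00113). Per kilobase MST1R stood below MET in every line, at 20.0 ± 3.92 in untreated Detroit 562, 6.55 ± 0.821 in FaDu and 10.8 ± 1.23 in SCC-9. With HGF Detroit 562 had 4568, 4232 and 5537, FaDu 1561, 1375 and 2257 and SCC-9 2336, 2805 and 2559. The log2 fold change was 0.18 (95% interval -0.18 to 0.54), 0.33 (-0.034 to 0.70) and 0.17 (-0.19 to 0.53) in the order given, with control and HGF libraries overlapping in each line and no test passed. The blocked model gave MST1R an adjusted p of 0.081 (Detroit 562) and 0.041 (FaDu), below the fold limit in both.

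HGF (ENSG00000019991.16, chr7:81699008-81770438, minus strand), the ligand itself, was hardly transcribed in these cells. Its raw counts were 2, 3 and 0 in untreated and 1, 0 and 1 in HGF-treated Detroit 562, 0 in all 6 FaDu libraries, and 1, 2 and 0 in untreated and 1, 1 and 0 in HGF-treated SCC-9. The gene was at 0 in 10 of 18 libraries and had 12 counts in total. At most 3 counts in a library of this depth allow a level per kilobase of up to 0.00936, counting error only, and MET in its lowest library was 2055-fold above that floor. Fibroblasts are the usual source of HGF, and 6 of 9 fibroblast markers had at most 3 counts in every Detroit 562 library, with PDGFRB at 0. In FaDu 3 of 9 had at most 3 counts, with LUM and POSTN at 0, and in SCC-9 2 of 9, with POSTN at 0. The summed level per kilobase of the 9 markers was 1.63 to 5.46 in Detroit 562, 0.412 to 0.781 in FaDu and 12.6 to 16.7 in SCC-9. Collagen genes were detected, COL1A1 with 356 to 903 counts in Detroit 562, 140 to 281 in FaDu and 2120 to 3646 in SCC-9, and COL1A2 with 136 to 1396 in Detroit 562 and 292 to 465 in SCC-9. FAP had 1327 to 1911 counts in SCC-9.

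**Figure D2:**
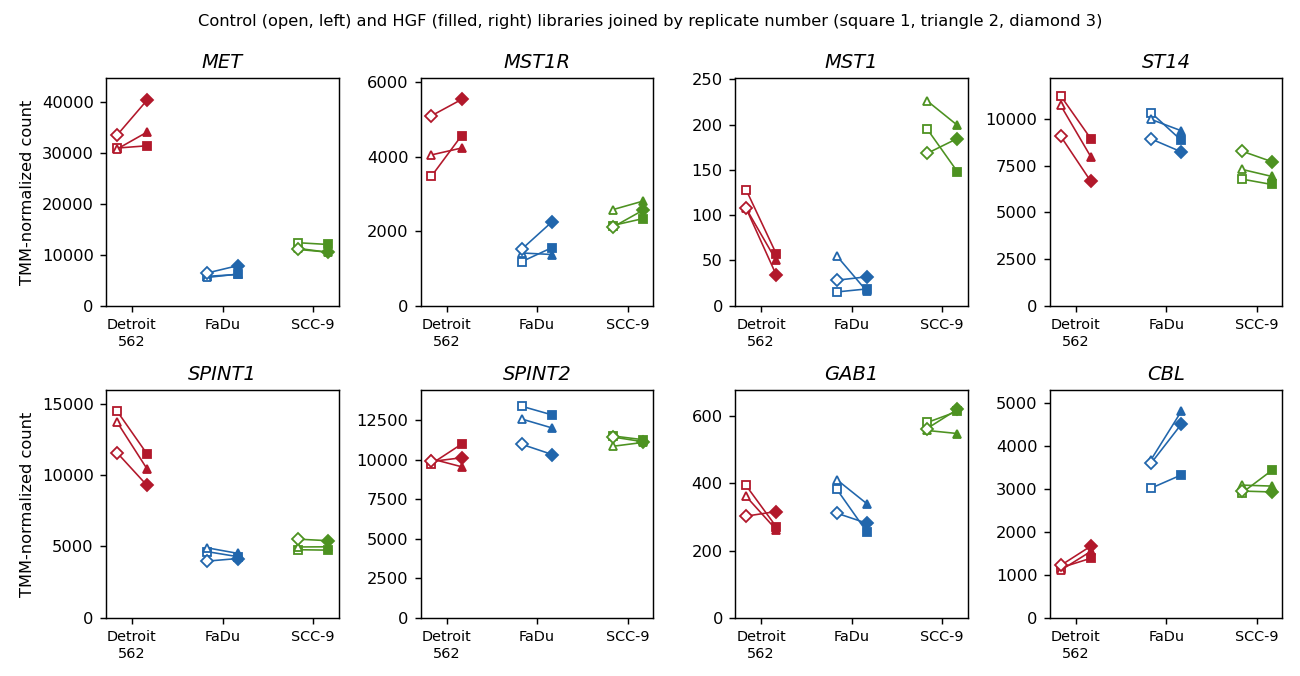
TMM-normalized counts of the 8 members tested, with control (open) and HGF (filled) libraries of the same replicate number joined. MST1, ST14 and SPINT1 fall and CBL rises in all 3 pairs of Detroit 562, while in SCC-9 control and HGF libraries overlap for each of the 8.

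MST1 (ENSG00000173531.15, chr3:49683947-49689501, minus strand), which encodes macrophage-stimulating protein, was the only member called with HGF in Detroit 562. In Detroit 562 the normalized counts were 128, 108 and 108 without and 57.4, 50.0 and 34.1 with HGF. Every HGF library lay below every control library, and the fall was seen in 3 of 3 pairs. The level fell 2.41-fold (log2 fold change -1.27, SE 0.318, 95% interval -1.94 to -0.60, edgeR adjusted p = 0.00974), and the exact two-sided permutation test gave p = 0.1, the smallest that 3 libraries against 3 can give. In FaDu the counts were 15.2, 55.2 and 28.2 without and 18.5, 16.1 and 31.9 with HGF, with a log2 fold change of -0.55 whose interval ran from -1.35 to 0.24 (adjusted p = 0.687). In SCC-9 they were 195, 226 and 168 without and 148, 199 and 185 with HGF, at a log2 fold change of -0.15 (-0.74 to 0.45, adjusted p = 1). Both lines had overlapping groups, and FaDu held the lowest counts, so that its interval is the widest. Before HGF the lines differed widely, with Detroit 562 above FaDu by a log2 of 1.81 (SE 0.328, adjusted p = 9.97e-05) and below SCC-9 (-0.78, SE 0.289, adjusted p = 0.0218). FaDu stood 6.00-fold below SCC-9 (-2.59, SE 0.323, adjusted p = 1.55e-06). Per kilobase the ligand was at 0.563 ± 0.0585 in untreated Detroit 562, far below its receptor MST1R. MST1 has near-identical copies, and 22.2% of the 75-base stretches of its main transcript also occur in other genes, MST1L and MST1P2 among them. How reads matching several of these genes were counted is not stated, so a part of the count may belong to the copies.

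HGFAC (ENSG00000109758.8, chr4:3441887-3449495, plus strand) encodes HGF activator, a protease that circulates in serum and is made mainly in the liver. It had at most 5 counts in a library and 32 in all 18. All 3 HGF-treated Detroit 562 libraries were at 0, as were 2 others, which allows a level per kilobase of up to 0.0331 where 3 counts are taken as the floor. No fold change is given at such counts.

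ST14 (ENSG00000149418.10, chr11:130159562-130210376, plus strand) encodes matriptase, the membrane serine protease that cleaves HGF on epithelial cells. In Detroit 562 its normalized counts were 11259.8, 10748 and 9095 without and 8957, 7989 and 6671 with HGF. The HGF libraries lay below the control libraries, with little room between the highest of the former and the lowest of the latter. That is a log2 fold change of -0.397 (SE 0.110, 95% interval -0.63 to -0.16, adjusted p = 0.016), which passes the limit on p and falls short of the limit of 0.4 on fold. With the pairs as a block it was -0.401 (SE 0.0417, adjusted p = 3.2e-06) and ST14 was called. FaDu had 10349, 9989 and 8942 without and 8864, 9381 and 8249 with HGF, a log2 fold change of -0.14 (-0.38 to 0.088, adjusted p = 0.714, blocked 0.038). SCC-9 had 6792, 7313 and 8295 without and 6501, 6933 and 7723 with it, a log2 fold change of -0.082 (-0.31 to 0.15, adjusted p = 1). The protease was lower with HGF in 3 of 3 pairs in each of the 3 lines, while the groups overlapped in FaDu and SCC-9. Untreated Detroit 562 and FaDu did not differ beyond their spread (log2 fold change 0.087, -0.14 to 0.32, adjusted p = 0.486), and Detroit 562 was above SCC-9 (0.47, SE 0.110, adjusted p = 0.0009).

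SPINT1 (ENSG00000166145.14, chr15:40844018-40858207, plus strand) encodes HAI-1, a Kunitz-type inhibitor of matriptase and HGF activator. In Detroit 562 its normalized counts were 14494, 13724 and 11571 without and 11471, 10424 and 9267 with HGF. The groups did not overlap, and the count fell in 3 of 3 pairs. The log2 fold change was -0.35 (SE 0.0988, 95% interval -0.56 to -0.14, adjusted p = 0.0169, blocked 1.47e-05), past the limit on p and under that on fold in both models. FaDu had 4626, 4894 and 3965 without and 4279, 4510.0 and 4147 with HGF (log2 fold change -0.060, -0.27 to 0.15). SCC-9 had 4764, 4957 and 5503 without and 4734, 4968 and 5397 with it (-0.012, -0.22 to 0.20). Control and HGF libraries overlapped in both of these lines. Untreated Detroit 562 held 2.95 times the level of FaDu (log2 fold change 1.56, SE 0.101, adjusted p = 4.61e-10) and 2.61 times that of SCC-9 (1.39, SE 0.101, adjusted p = 1.65e-09). FaDu and SCC-9 overlapped (-0.17, -0.38 to 0.035, adjusted p = 0.121).

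SPINT2 (ENSG00000167642.12, chr19:38244035-38292614, plus strand) encodes HAI-2, the second Kunitz-type inhibitor of these proteases. Its group means ranged over 0.31 on the log2 scale, the narrowest range of the 8 members tested. Detroit 562 had normalized counts of 9757, 10069.5 and 9903 without and 11004, 9567 and 10137 with HGF. FaDu had 13398, 12588 and 10986 without and 12853, 12026 and 10344 with it, and SCC-9 11523, 10864 and 11457 without and 11287, 11108 and 11158 with it. Control and HGF libraries overlapped in each line. HGF changed SPINT2 by a log2 of 0.047 in Detroit 562 (95% interval -0.12 to 0.22), -0.070 in FaDu (-0.24 to 0.099) and -0.012 in SCC-9 (-0.18 to 0.16), and none passed the test. Untreated Detroit 562 was below FaDu by a log2 fold change of -0.31 (SE 0.0798, adjusted p = 0.00203) and below SCC-9 by -0.19 (SE 0.0798, adjusted p = 0.0424), both under the fold limit. The gene model CTB-102L5.4 overlaps SPINT2 on the same strand, and its count was 80.8% to 98.9% of that of SPINT2 in each library. Reads in the overlap were counted for both genes, so the 2 genes cannot be told apart here.

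**Figure D3:**
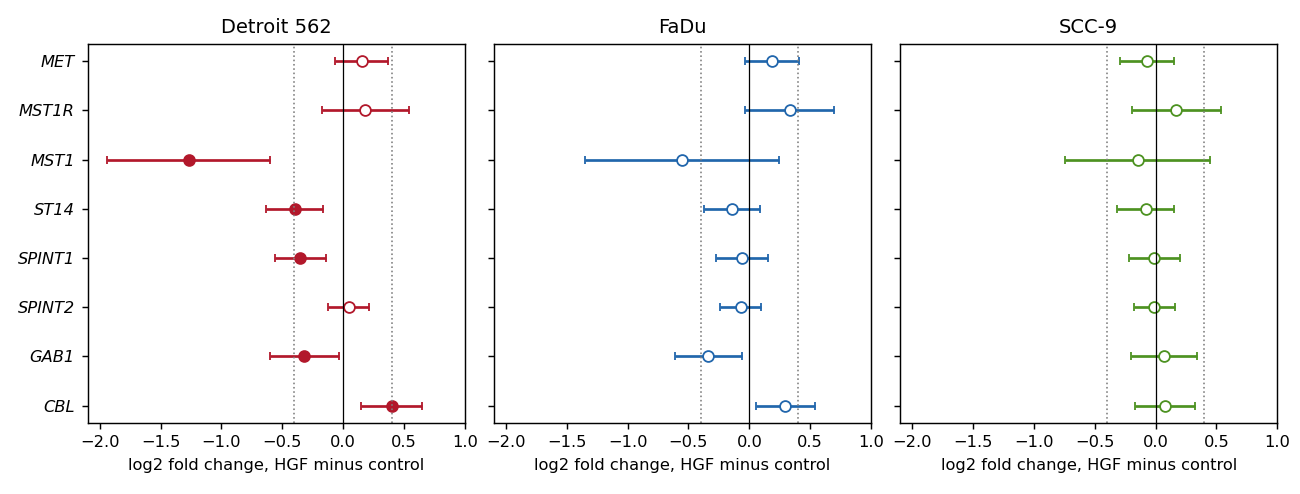
Log2 fold change with HGF of the 8 members tested, by line, 3 libraries against 3. Bars are 95% intervals from the quasi-likelihood fit of all 18 libraries. Filled circles have an adjusted p below 0.1, and dotted lines mark the fold limit of 0.4. In Detroit 562 MST1 lies beyond the limit and ST14, SPINT1, GAB1 and CBL are filled inside it, while none is filled in FaDu or SCC-9.

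The balance of inhibitor and protease was read as the log2 ratio of their levels per kilobase within a library, which does not depend on library scaling. The ratio of SPINT1 to ST14 was 0.57 ± 0.0087 (SD, n = 3) in untreated Detroit 562, -0.90 ± 0.080 in FaDu and -0.34 ± 0.041 in SCC-9. Of these untreated lines Detroit 562 was the only one with more SPINT1 than ST14, and the libraries of the lines did not overlap. With HGF the ratio changed by 0.050 (SE 0.036) in Detroit 562, 0.088 (SE 0.051) in FaDu and 0.070 (SE 0.029) in SCC-9 and the groups overlapped in each line. For SPINT2 to ST14 untreated Detroit 562 was instead the lowest line, at -0.36 ± 0.17. The sign of this ratio depends on the length taken for SPINT2, 5085 bases of merged exons or 1688 of its main transcript. The order of the lines does not depend on it. FaDu stood at 0.029 ± 0.038 and SCC-9 at 0.29 ± 0.15, and the untreated lines did not overlap. With HGF the ratio of SPINT2 to ST14 in Detroit 562 went from -0.36 ± 0.17 to 0.082 ± 0.19. That difference of 0.45 (SE 0.15) was seen in 3 of 3 pairs without overlap of the groups. The ratio of SPINT1 to SPINT2 there went from 0.94 ± 0.18 to 0.54 ± 0.13 with HGF, a difference of -0.40 (SE 0.13), also without overlap. In both ratios SPINT2 rose only relative to the other gene. Its own log2 fold change there was 0.047, against -0.397 for ST14 and -0.35 for SPINT1. The count of SPINT2 cannot be told apart from that of CTB-102L5.4. Over 36 tests of 6 ratios the smallest exact permutation p was 0.1, as small as 3 against 3 allows, and its adjusted value was 0.164, so that no ratio could pass.

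GAB1 (ENSG00000109458.8, chr4:143336762-143474568, plus strand) encodes the docking protein that carries the MET signal to PI3K, SHP2 and ERK. In Detroit 562 its normalized counts were 394, 362 and 303 without and 271, 262 and 316 with HGF. The groups overlapped, and the count was lower with HGF in 2 of 3 pairs. The log2 fold change was -0.32 (SE 0.133, 95% interval -0.60 to -0.037, adjusted p = 0.0889, blocked 0.031), under the fold limit. In FaDu the counts were 384, 412 and 312 without and 256, 339.9 and 282 with HGF, lower in 3 of 3 pairs but overlapping. This gave a log2 fold change of -0.34 (-0.61 to -0.057, adjusted p = 0.572, blocked 0.0631). SCC-9 had 582, 558 and 564 without and 615, 549 and 621 with HGF, a log2 fold change of 0.067 (-0.20 to 0.34, adjusted p = 1). Untreated SCC-9 had more GAB1 than both other lines, with Detroit 562 at a log2 fold change of -0.69 (SE 0.130, adjusted p = 0.000143) and FaDu at -0.62 (SE 0.130, adjusted p = 0.000359) against it. Detroit 562 and FaDu overlapped (-0.063, -0.34 to 0.21).

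CBL (ENSG00000110395.6, chr11:119206276-119313926, plus strand) encodes the ubiquitin ligase that ends MET signalling. It was the only member tested for which Detroit 562 was lower than both other lines by more than the limit. Untreated Detroit 562 had counts of 1164, 1106 and 1218, FaDu 3021, 3687 and 3603 and SCC-9 2905, 3091 and 2952. Detroit 562 stood 2.96-fold below FaDu (log2 fold change -1.56, SE 0.119, adjusted p = 3.61e-09) and 2.57-fold below SCC-9 (-1.36, SE 0.119, adjusted p = 1.78e-08), while FaDu and SCC-9 overlapped (0.20, -0.040 to 0.45, adjusted p = 0.119). With HGF the counts were 1385, 1545 and 1668 in Detroit 562, above all control libraries and higher in 3 of 3 pairs. That is a log2 fold change of 0.398 (SE 0.118, 95% interval 0.15 to 0.65, adjusted p = 0.0225, blocked 0.00029), just under the fold limit. FaDu counts with HGF were 3328, 4812 and 4511, higher in 3 of 3 pairs but overlapping (0.29, 0.051 to 0.54, adjusted p = 0.572, blocked 0.00937). SCC-9 counts with HGF were 3434, 3068 and 2931, higher in 1 of 3 pairs (0.076, -0.17 to 0.32, adjusted p = 1). Set against the receptor, the log2 ratio of CBL to MET per kilobase was -5.47 ± 0.033 in untreated Detroit 562, -1.49 ± 0.18 in FaDu and -2.65 ± 0.12 in SCC-9, and no library of a line overlapped those of another. With HGF it changed by 0.25 (SE 0.044) in Detroit 562, 0.10 (SE 0.19) in FaDu and 0.15 (SE 0.072) in SCC-9, higher in 3 of 3 pairs in each line. In SCC-9 MET itself was higher with HGF in 0 of 3 pairs. The log2 ratio of GAB1 to MET went from -6.97 ± 0.26 to -7.43 ± 0.089 with HGF in Detroit 562, a difference of -0.46 (SE 0.16), lower in all 3 pairs. It differed by -0.51 (SE 0.26) in FaDu, lower in all 3 pairs but overlapping, and by 0.14 (SE 0.073) in SCC-9, higher in all 3 pairs without overlap. CBL overlaps MCAM on the opposite strand, and the authors counted by strand.

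In Detroit 562 control and HGF libraries did not overlap for 4 of 8 members, MST1, ST14, SPINT1 and CBL, where 38.2% of all genes tested did not overlap. With no limit on fold, 5 of 8 members had an adjusted p below 0.1 in Detroit 562, where 34.1% of all genes did, and 7 of 8 in the blocked model, where 53.6% did. With the fold limit the blocked model called 2 of 8, MST1 and ST14, where 21.5% of all genes were called. In FaDu the blocked model gave 5 of 8, where 17.4% of all genes did, namely MET, MST1R, ST14, GAB1 and CBL, none with a fold change past 0.4. In SCC-9 it gave 0 of 8, where 5.29% did. The call of MST1 in Detroit 562 held with each single library left out, but the number of members called there ranged from 1 to 5. It was 5 without control replicate 3, which held the lowest ST14, SPINT1 and GAB1 counts of the controls, and where 23.2% of all genes were called. It was 4 without HGF replicate 1 (19% of all genes), 2 without HGF replicate 2 (18.5%) or HGF replicate 3 (12%), and 1 without control replicate 1 (10.2%) or control replicate 2 (12.5%).

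Whether the lines differ in their response was tested by interaction contrasts, with a call at an adjusted p below 0.1. The model without pairs called 0 of 8 members for Detroit 562 against FaDu, where 0.239% of all genes were called, 0 of 8 for Detroit 562 against SCC-9, where 0.924% were, and 0 of 8 for FaDu against SCC-9, where 0% were. At an unadjusted p below 0.05 there were 0, 2 and 1 members, where 11.6%, 15.4% and 2.18% of all genes were. DESeq2 called 0 members in each, and 1.73%, 4.2% and 0.0323% of all genes. The log2 fold change of MST1 in Detroit 562 minus that in SCC-9 was -1.12 (adjusted p = 0.243) in this edgeR fit. With the pairs as a block, edgeR called 2 of 8 for Detroit 562 against FaDu, where 19.1% of all genes were called, 6 of 8 for Detroit 562 against SCC-9, where 26.9% were, and 0 of 8 for FaDu against SCC-9, where 1.32% were. The 2 were ST14 (difference of log2 fold changes -0.26, adjusted p = 0.0122) and SPINT1 (-0.30, adjusted p = 0.00739). The call of a larger fall in Detroit 562 for this protease and its inhibitor was made in the blocked model.

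Other genes of HGF and MET signalling were taken from a list of 67 genes in 4 roles, of which 64 were tested. In Detroit 562 HGF raised 7 of them, where 6.16% of all genes tested rose, and lowered 7, where 11.7% fell, and their median log2 fold change was 0.015 against -0.0056 over all genes tested. Of 13 other activating proteases and their regulators tested, 3 rose and 4 fell. Among those that rose were PLAUR, the urokinase receptor (log2 fold change 1.19, SE 0.300, adjusted p = 0.0101), and F12, coagulation factor XII (0.77, SE 0.132, adjusted p = 0.00148). The 4 that fell were the membrane-anchored serine proteases TMPRSS13 (-1.87, SE 0.374, adjusted p = 0.00321), TMPRSS2 (-1.07, SE 0.301, adjusted p = 0.0176) and PRSS8, prostasin (-0.66, SE 0.184, adjusted p = 0.0163), and the secreted plasminogen activator PLAT (-0.68, SE 0.295, adjusted p = 0.0996). Of 16 co-receptors and MET partners 2 rose, the hyaluronan receptor CD44 (0.69, SE 0.243, adjusted p = 0.0474) and the integrin ITGA6 (0.67, SE 0.182, adjusted p = 0.0144), and 3 fell, with the semaphorin receptor PLXNB1 as the largest change (-0.72, SE 0.157, adjusted p = 0.00503). None of 20 other adaptors and effectors, GRB2, SHC1 and the PI3K subunits among them, was called in either direction. Of 15 other negative regulators 2 rose, with SOCS3, a suppressor of cytokine signalling, at 0.81 (SE 0.265, adjusted p = 0.0354), and 0 fell. Leaving out control replicate 1 or control replicate 2 of Detroit 562 left 3 genes of the list that rose. In these fits 10.2% and 12.5% of all genes were called in either direction.

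**Figure D4:**
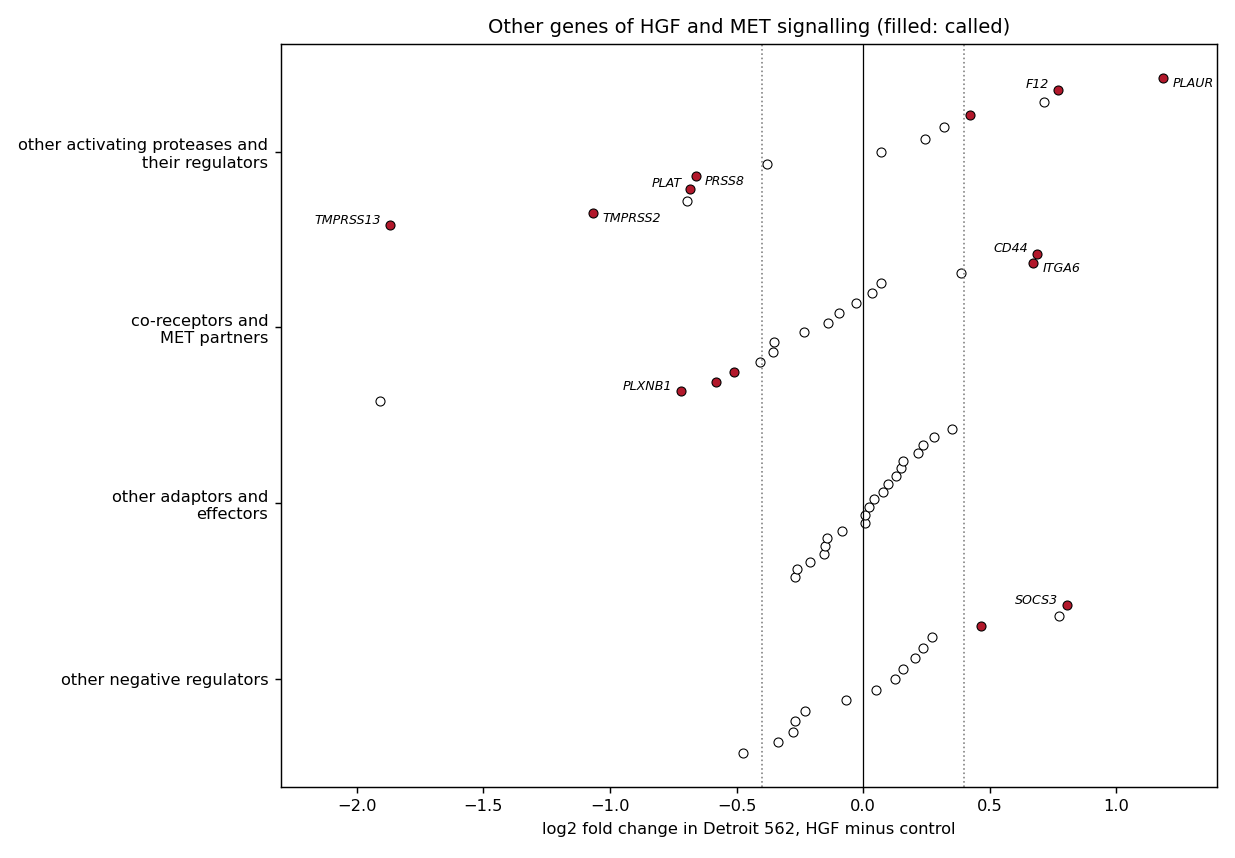
Log2 fold change with HGF in Detroit 562 of the 64 tested genes of the HGF and MET list, by role, with filled circles for genes called and names for the 5 largest changes called in each direction. Dotted lines mark the fold limit of 0.4. The 20 other adaptors and effectors all lie between the dotted lines, while proteases and co-receptors reach beyond them on both sides.

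In FaDu and SCC-9 none of the 64 genes was called by edgeR without pairs, with 13 and 4 at an unadjusted p below 0.05, where 8.06% and 4.14% of all genes were. DESeq2 found 3 that rose in FaDu, where it called 0.426% of all genes in either direction. With the pairs as a block 6 rose and 6 fell in FaDu, where 5.6% of all genes were called in either direction. The largest rises there were of CD44 (log2 fold change 0.92, adjusted p = 8.38e-05), NRP2 (0.69, adjusted p = 0.0258), NRP1 (0.67, adjusted p = 0.000176), PLAUR (0.65, adjusted p = 0.00236) and ITGA6 (0.54, adjusted p = 4.14e-05). NRP1 and NRP2 are neuropilins, co-receptors of semaphorins and growth factors. The largest falls were of TMPRSS2 (-0.95, adjusted p = 0.0248), TMPRSS13 (-0.65, adjusted p = 0.00689), PRSS8 (-0.56, adjusted p = 0.00048), the docking protein GAB2 (-0.53, adjusted p = 0.0409) and PLAT (-0.48, adjusted p = 0.000533). In SCC-9 the blocked model called 1 gene of the list, SPSB1 (-0.45, adjusted p = 0.0194), where 1.97% of all genes were called.

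For each member whose 6 group means of log2 CPM ranged over more than 1, the genes with the most similar pattern were sought, by the root mean square difference of the 6 centred group means. The nearest genes were BOK at 0.102 and TRIM44 at 0.114 for MET, RALB at 0.0508 and THADA at 0.0683 for MST1R, and EFCAB4A at 0.129 and GATSL3 at 0.173 for MST1. They were DGCR6L at 0.0349 and SH3GL1 at 0.0431 for SPINT1, CNKSR1 at 0.0566 and WBP2 at 0.0625 for GAB1, and TXLNG at 0.0399 and SMN1 at 0.0600 for CBL. SMN1 has a near-identical copy, so its count is uncertain. No member was among the 2 nearest genes of another. These values describe 6 groups and were not tested.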

How the data were processed

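mRNA was sequenced from 18 libraries of 3 cell lines. Per the submitters' processing notes and the paper's methods, the authors demultiplexed reads with bcl2fastq 2.20.0.422, trimmed them with cutadapt 1.16, aligned them to GRCh38.p12 with STAR 2.5.2b, and counted reads per GENCODE gene by strand with bedtools over whole genes, introns included. A read in overlapping genes of the same strand counts for both. The deposited values are raw counts, and the authors tested them with DESeq2 1.22.1.

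Here the counts of all 18 libraries were fitted in edgeR 4.0.16 (R 4.3.3, limma 3.58.1) with its quasi-likelihood test, TMM factors (0.931 to 1.05), its expression filter over the 6 groups, and Benjamini-Hochberg adjustment over 15475 genes. Calls used limits of 0.1 on the adjusted p and 0.4 on the size of the log2 fold change, and for differences in response the adjusted p alone. Libraries totalled 35304770 to 44003970 counts, and floors of 3 counts cover counting error only, while intervals come from the fit and hold the spread between libraries. Levels per kilobase used GENCODE 44 exon lengths. Ratios used no pseudocount, with 0.5 counts added as an alternative, and exact two-sided permutation tests over 36 comparisons. Alternatives were DESeq2 1.42.0, other scaling factors and filters, other thresholds, single libraries left out and a block of replicate numbers. Deviations from the group means were correlated between control and HGF libraries. With the same number they correlated at 0.161 to 0.454 in Detroit 562, 0.376 to 0.563 in FaDu and 0.203 to 0.332 in SCC-9. All were over 0.1, so the numbers were taken to pair the libraries. With unlike numbers, control 1 and HGF 2 (0.218) and control 2 and HGF 1 (0.112) of Detroit 562 also passed 0.1. Control 1 and HGF 2 of FaDu (0.139) did too. In Detroit 562 the correlations do not tell replicate 1 from replicate 2, so the blocked results rest on assumed pairs. All members are described, listed pathway genes are named by the 5 largest changes called in each direction, and like genes by the 2 nearest. The members and lists were chosen with earlier results of these data known. The edgeR fits were tested on simulated data with the same spread for every gene and no replicate pairs. This did not test the p-values of the blocked model or of the interaction contrasts.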

Additional observations from a re-analysis of the deposited data

Results flagged for a closer look

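With the replicate pairs as a block, 8 differences in HGF response between lines had an edgeR adjusted p below 0.1, none of which passed in the model without pairs. Each was singled out because the difference between lines was itself tested. Against FaDu, the log2 fold change of Detroit 562 differed by -0.26 for ST14 (adjusted p = 0.0122) and -0.30 for SPINT1 (adjusted p = 0.00739). Against SCC-9, it differed by -1.13 for MST1 (adjusted p = 0.0186), -0.32 for ST14 (adjusted p = 0.0022), -0.34 for SPINT1 (adjusted p = 0.00192), -0.39 for GAB1 (adjusted p = 0.0878), 0.22 for MET (adjusted p = 0.0461) and 0.32 for CBL (adjusted p = 0.027). In the model without pairs the same differences had adjusted p values of 0.544 and 0.441 against FaDu and of 0.243, 0.343, 0.273, 0.331, 0.481 and 0.361 against SCC-9. The blocked interaction called 19.1% and 26.9% of all genes tested in these comparisons. Line and medium cannot be told apart against SCC-9.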

How the results depend on the processing

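With HGF in Detroit 562, edgeR without pairs called 1 member, where 17.9% of all genes tested were called. The number was 2, MST1 and ST14, with the replicate block (21.5% of all genes), DESeq2's size factors (18%) or upper-quartile factors (18.1%). The same 2 were called with a filter of at least 50 counts in 3 libraries (18.7%), and by DESeq2 with its prior (17.6%) or without it (17.8%). With no filter (13.9%) or the libraries of that line alone (18%) the 2 were MST1 and CBL. The gene added, ST14 or CBL, lies next to the fold limit. The number was 5 with no minimum fold change (34.1%) and 1 to 5 with single libraries left out (10.2% to 23.2%). For the HGF response in Detroit 562 against FaDu the replicate block raised the count from 0 (0.239% of all genes) to 2 (19.1%). Against SCC-9 the count rose from 0 (0.924%) to 6 with the replicate block (26.9%) and to 1 with the libraries of these lines alone (2.56%). It was 0 to 1 with single libraries left out, with SPINT1 called without control replicate 3 of Detroit 562 (7.92%). The stricter threshold had limits of 0.05 on the adjusted p and 1 on the log2 fold change. It left 3 of 7 members for untreated Detroit 562 against SCC-9, where 35.4% of all genes were called. For untreated FaDu against SCC-9 it left 1 of 4, where 35.1% were. Of the listed pathway genes that rose in Detroit 562, 1 was left at the stricter threshold and 16 were counted with no minimum fold change, and single libraries left out gave 3 to 9. Of those that fell, 2 were left at the stricter threshold and 12 were counted with no minimum fold change, and single libraries left out gave 5 to 10. In either direction these settings called 4.01%, 34.1% and 10.2% to 23.2% of all genes. In FaDu the counts of 0 became 6 up and 6 down with the replicate block (5.6% of all genes in either direction). They became 3 up with DESeq2 with its prior (0.426%) or without it (0.42%), and 1 up with a replicate block shared by the lines (0.291%). Single libraries left out gave 0 to 2 up and 0 to 1 down (up to 0.473%). In SCC-9 the replicate block gave 1 down (1.97%). The block shared by the lines and the setting with no minimum fold change were not planned, and were chosen after seeing the data. The causes were not tested. The blocked model changed no other count of members called with HGF.

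Over all alternatives 17 fold changes of members changed sign in 38 fits, none of them called. With single libraries left out, the log2 fold change with HGF ran from -0.0088 to 0.094 for SPINT2 in Detroit 562, from -0.90 to 0.033 for MST1, -0.14 to 0.0052 for SPINT1 and -0.15 to 0.026 for SPINT2 in FaDu, and from -0.065 to 0.050 for SPINT1 and -0.039 to 0.0052 for SPINT2 in SCC-9. That of GAB1 in untreated Detroit 562 against FaDu ran from -0.17 to 0.037. The difference in response between Detroit 562 and FaDu ran from -0.14 to 0.088 for MET, -0.29 to 0.082 for MST1R, -0.081 to 0.14 for GAB1 and -0.041 to 0.21 for CBL, and that between Detroit 562 and SCC-9 from -0.11 to 0.17 for MST1R. The difference between FaDu and SCC-9 ran from -0.066 to 0.30 for MST1R, -0.75 to 0.18 for MST1, -0.13 to 0.019 for ST14, -0.13 to 0.017 for SPINT1 and -0.13 to 0.038 for SPINT2. For GAB1 the difference between Detroit 562 and FaDu was also -0.000658 in DESeq2 with its prior and -0.000785 without it. Depth limits MST1 in FaDu, and HGF and HGFAC in every line.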
